A study of Homo sapiens with 4 samples.

Results

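The BCL2 family genes set the threshold for apoptosis. The 10 members followed here were BCL2, MCL1, BCL2L1 and BCL2A1, which restrain cell death, BAX and BAK1, which permeabilise the mitochondrial outer membrane, and BCL2L11, PMAIP1, BBC3 and BID, the BH3-only members. A peak of open chromatin was given to a member when that gene was the nearest protein-coding gene body to the peak summit within 100 kb. This gave 233 of 307634 peaks over the 4 lists. Merging peaks that overlapped by 1 bp or more gave 73 member regions of 122632 regions in all.

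In plasma cells, normal and malignant, survival rests on the anti-apoptotic proteins, which hold the effectors and the BH3-only activators in check. MCL1 is the member on which myeloma cells most often depend, and BCL2 dependence is known in a subset of tumours. The BH3-only genes are the inducible side of the family: BCL2L11 encodes BIM, PMAIP1 encodes NOXA, which binds MCL1, and BBC3 encodes PUMA.

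ATAC-seq reads open chromatin through the sites at which Tn5 transposase can cut and tag DNA. The cells were OPM-2, a human multiple myeloma cell line carrying t(4;14). They were kept for 72 h in 1 µM all-trans retinoic acid (ATRA, which activates retinoic acid receptors), in 1 µM pomalidomide (POM, which redirects the cereblon ubiquitin ligase), in both at those doses (ATRA+POM), or in the vehicle DMSO. Each condition had 1 library of this 1 line, and without replicates no test was made.

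The lists held 76636 peaks after ATRA, 69162 after POM, 85434 after ATRA+POM and 76402 in DMSO. The reads piled up at each summit were recovered from the deposited fold and p-value. The depth read from the background was 94.1% of the DMSO depth in the ATRA library, 33.6% in the POM library and 62.7% in the ATRA+POM library, so absence of a weak peak after POM is the least informative. Pileups were scaled to DMSO by the median ratio over the 42930 regions present in all lists, and a region was counted as higher or lower when its scaled pileup differed by 1.5-fold or more. Intervals on log2 ratios are exact binomial 95% intervals and cover counting error only. More cells with an open region and wider opening in each cell cannot be told apart in such bulk libraries. Of 11 plasma cell and myeloma marker genes, 8 after ATRA, 10 after POM, 10 after ATRA+POM and 9 in DMSO had a peak within 1 kb of a gene boundary, against 2, 2, 3 and 2 of 10 markers of other cell types.

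The DNA at 5 member starts is shown first. PMAIP1 and BCL2L11 held a large pileup there in all libraries, BAX and BID were lower with POM, and BCL2A1 had no peak near its start. For BAX, and for MCL1 and BCL2L1, which were lower too, this depended on how the libraries were scaled. Each window runs 5′ to 3′ along the gene from 250 bases before to 50 bases after a RefSeq start on GRCh38.p14. Capitals mark matches, on either strand, to the motifs searched.
PMAIP1, chr18:59899746-59900045, plus strand: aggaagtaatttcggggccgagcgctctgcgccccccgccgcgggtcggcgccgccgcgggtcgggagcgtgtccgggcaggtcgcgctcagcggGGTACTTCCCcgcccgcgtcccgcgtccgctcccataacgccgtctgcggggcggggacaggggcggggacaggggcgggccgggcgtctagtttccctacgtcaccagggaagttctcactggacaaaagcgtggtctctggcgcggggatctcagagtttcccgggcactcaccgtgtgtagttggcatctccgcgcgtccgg
BCL2L11, chr2:111120664-111120963, plus strand: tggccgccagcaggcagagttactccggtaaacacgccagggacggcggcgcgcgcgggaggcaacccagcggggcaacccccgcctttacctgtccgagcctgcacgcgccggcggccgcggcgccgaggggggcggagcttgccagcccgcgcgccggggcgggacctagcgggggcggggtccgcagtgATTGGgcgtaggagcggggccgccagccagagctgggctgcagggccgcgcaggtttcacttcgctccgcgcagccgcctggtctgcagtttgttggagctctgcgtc
BAX, chr19:48954625-48954924, plus strand: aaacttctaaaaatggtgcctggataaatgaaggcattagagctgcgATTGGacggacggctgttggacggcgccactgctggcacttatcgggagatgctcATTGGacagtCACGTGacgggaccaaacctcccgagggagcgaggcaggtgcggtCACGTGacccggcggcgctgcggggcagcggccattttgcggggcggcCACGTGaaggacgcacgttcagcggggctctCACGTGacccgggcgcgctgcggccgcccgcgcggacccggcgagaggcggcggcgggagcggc
BID, chr22:17773934-17774233, minus strand: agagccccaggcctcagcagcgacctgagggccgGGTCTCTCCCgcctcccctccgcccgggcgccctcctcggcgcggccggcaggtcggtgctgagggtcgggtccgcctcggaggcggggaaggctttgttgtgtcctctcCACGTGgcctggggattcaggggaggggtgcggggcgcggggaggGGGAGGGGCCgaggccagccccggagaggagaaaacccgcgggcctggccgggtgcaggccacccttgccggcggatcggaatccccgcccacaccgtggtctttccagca
BCL2A1, chr15:79971147-79971446, minus strand: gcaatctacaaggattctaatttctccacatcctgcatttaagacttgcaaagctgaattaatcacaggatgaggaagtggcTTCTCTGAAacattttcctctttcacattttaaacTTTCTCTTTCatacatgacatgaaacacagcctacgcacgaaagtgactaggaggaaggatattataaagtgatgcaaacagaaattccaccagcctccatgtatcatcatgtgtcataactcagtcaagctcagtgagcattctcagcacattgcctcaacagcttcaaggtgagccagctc
RefSeq windows were at hand for 9 of the 10 members, all but MCL1. The windows of BCL2L11 and BID were 74.7% G and C, that of PMAIP1 71.3% and that of BAX 67.3%, while the BCL2A1 window had 41%, against a median of 58.7% over 35116 promoter windows. The E-box CACGTG, read by MYC and related factors, occurred in BAX, BBC3 and BID, that is in 3 of 9 members, and in 7.26% of all promoters. The BAX window held 4 copies of it, 138, 93, 45 and 14 bases before the start. The interferon regulatory factor motif, a pair of GAAA runs with any 2 letters between them, occurred in BBC3 and BCL2A1 and in 3.57% of all promoters. The NF-kB motif, GGGA and CC with any 4 letters between them, occurred in BCL2, BID and PMAIP1 (25.6% of all promoters), and CCAAT in BAK1, BAX, BBC3 and BCL2L11 (34.6%). The Ikaros family core TGGGAA was found in BAK1 (24.0% of all promoters), the AP-1 motif TGANTCA in BBC3 (7.71%) and the STAT motif TTCNNNGAA in BCL2A1 (7.66%). The nuclear receptor half-site AGGTCA was in none of the 9 windows and in 13.8% of all promoters. A match describes letters, not binding.

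Members differed widely in how many regions they held. The member peaks numbered 59 after ATRA, 47 after POM, 61 after ATRA+POM and 66 in DMSO. BCL2 had the most, with 16 peaks after ATRA, 15 after POM, 18 after ATRA+POM and 18 in DMSO, where the median protein-coding gene had 2 in each library. PMAIP1 came next with 14, 10, 14 and 15 peaks in the same order. The room around these genes is large: the stretch nearest to BCL2 and within the limit spanned 272 kb and that of PMAIP1 204 kb, against 13.6 kb for BAX and 29.0 kb for BBC3. BAX had 1 peak in each treated library and 2 in DMSO, and BID had 2 after ATRA, 1 after POM, 1 after ATRA+POM and 2 in DMSO.

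**Figure D1:**
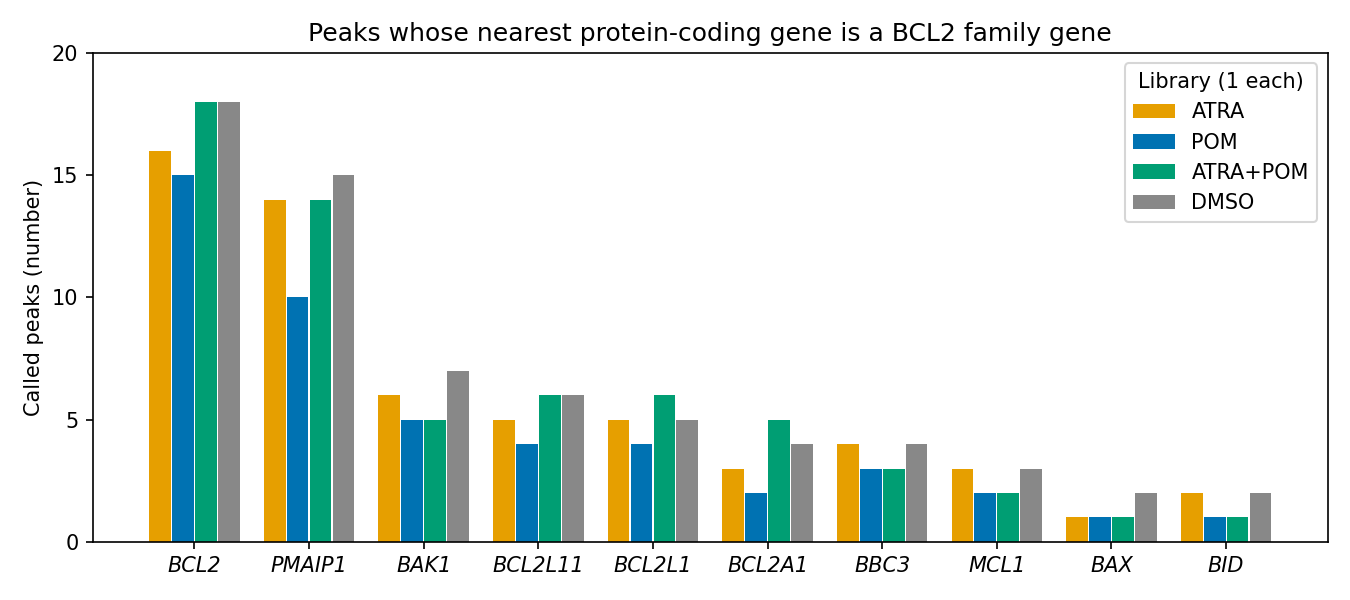
Number of called peaks given to each member, 1 bar per library, ordered by the count in DMSO. BCL2 has 15 to 18 peaks and PMAIP1 10 to 15, while BAX and BID have 1 or 2.

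Most member regions were shared by the lists. Of the 73 regions, 42 (57.5%) were called in all 4 lists, against 35.0% of all regions. After ATRA, 3 member peaks (5.08%) overlapped no DMSO peak and 11 DMSO peaks (16.7%) overlapped none after ATRA, where 19.5% and 19.5% of all peaks did. After POM, none of the 47 member peaks was new against DMSO and 21 DMSO peaks (31.8%) were absent, where 27.2% and 36.6% of all peaks were. ATRA+POM had 6 new member peaks (9.84%) and lacked 13 (19.7%) against DMSO, where all peaks gave 32.7% and 25.8%. The members thus had lower shares of new peaks than all peaks in each of these 3 comparisons. The sets differ, since all peaks and all regions include those farther from genes. Every member peak lay within 100 kb of a protein-coding gene. Of all peaks, 85.4% did after ATRA, 80.0% after POM, 77.6% after ATRA+POM and 85.9% in DMSO. Against ATRA, ATRA+POM had 9 new member peaks (14.8%, all peaks 33.3%) and lacked 9 (15.3%, all peaks 26.5%). Against POM it had 17 new ones (27.9%, all peaks 35.0%) and lacked 2 (4.26%, all peaks 17.7%). No member region was in both lists with POM and in neither list without it, a pattern of 6.05% of all regions. The reverse pattern, present with ATRA and DMSO and absent from both lists with POM, held for 5 member regions (6.85%, all regions 6.31%), near BAK1, BCL2, BCL2L11, BID and MCL1. Of the 31 member regions missing from at least 1 list, 29 never exceeded 43 reads, and the exceptions were a BAX region called in DMSO alone and a BBC3 region absent after ATRA+POM. In the 42 shared regions the summits moved little: their spread over the 4 lists had a median of 91 bp, was below 100 bp in 22 regions and reached at most 395 bp, inside BCL2.

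With ATRA alone, more member regions were lower than higher, though most of the lower ones had intervals that include 0. Of 55 regions in both lists, 4 (7.27%) were at least 1.5-fold higher (all regions 7.23%) and 8 (14.5%) lower (all regions 5.8%), and their median log2 ratio was -0.08, against 0.02 over all regions. With POM alone, 5 of 45 shared regions (11.1%) were higher (all regions 25.8%) and 15 (33.3%) lower (all regions 21.5%), with a median of -0.15 against 0.04. With ATRA+POM against DMSO, 6 of 53 (11.3%) were higher (all regions 26.7%) and 19 (35.8%) lower (all regions 21.6%), with a median of -0.08 against 0.05. Adding POM to ATRA gave 9 of 50 (18%) higher (all regions 23.7%) and 15 (30%) lower (all regions 21.6%), with a median of -0.22 against 0.00. Adding ATRA to POM gave 3 of 43 (6.98%) higher (all regions 12.9%) and 2 (4.65%) lower (all regions 9.73%), with a median of -0.11 against 0.03. The excess of lower over higher member regions with POM depends on the scale: with libraries scaled on regions within 1 kb of a gene boundary, POM against DMSO had 16 higher and 9 lower, and ATRA+POM against ATRA had 18 higher and 4 lower.

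POM against DMSO and ATRA+POM against ATRA share no library, so each gives its own reading of POM. Of the 42 member regions in all lists, 3 (7.14%) were higher in both comparisons, where 15.5% of all such regions were, and 11 (26.2%) were lower in both, where 14.4% were. The plasma cell and myeloma markers moved alike, with 0 of 43 shared regions higher in both and 12 (27.9%) lower, and whether the members' counts follow from that was not tested. None of the 42 member regions was higher in one and lower in the other. On the boundary scale the member counts turned to 11 higher and 3 lower. Under each of the 4 scales tried, 3 regions stayed higher, near PMAIP1, BCL2L1 and BCL2 (all regions 11.5%), and 3 stayed lower, near BAK1, BBC3 and BID (all regions 3.61%). The other 8 lower regions fell short of 1.5-fold in at least 1 of the 2 comparisons on the boundary scale. For ATRA, the matching pair is ATRA against DMSO and ATRA+POM against POM. It gave 1 member region higher in both (all regions 1.47%), near PMAIP1, and 0 lower in both (all regions 0.941%).

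The regions that passed 1.5-fold with ATRA alone all lay over 1 kb from a gene boundary. The 4 higher ones were near PMAIP1, BCL2A1 and, with 2 regions, BCL2, and the intervals of these 2 BCL2 regions include 0. The BCL2A1 region (chr15:79978509-79979388, 7.76 kb upstream) had 38 reads after ATRA and 21 in DMSO, a log2 ratio of 1.05 (0.24 to 1.89). The 8 lower ones were 4 BCL2 regions, all inside the gene, 2 PMAIP1 regions, 1 BCL2L1 region and 1 BAK1 region. Their intervals include 0 except at the BCL2L1 region and at the BCL2 regions chr18:63252893-63254358 and chr18:63263205-63264167. Of the BCL2 regions, the one at chr18:63263205-63264167 had 30 reads after ATRA, 24 after POM, 45 after ATRA+POM and 58 in DMSO, or -0.76 (-1.44 to -0.10) for ATRA over DMSO. With ATRA added to POM, the 3 higher regions were near PMAIP1, BCL2L1 and BCL2, each with an interval that includes 0, and the 2 lower ones were the start regions of BAK1, at -0.64 (-1.18 to -0.10), and BID, at -0.84 (-2.06 to 0.39).

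**Figure D2:**
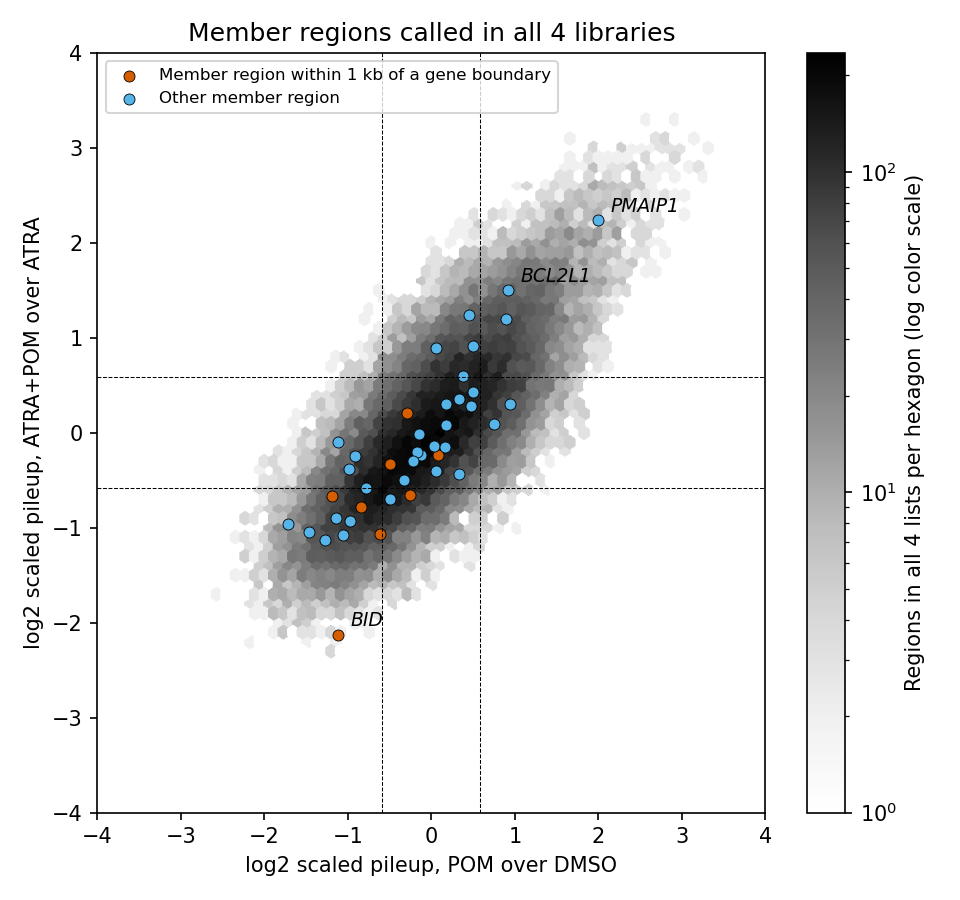
Log2 ratio of scaled summit pileup for POM over DMSO (x axis) and ATRA+POM over ATRA (y axis), with the density of all 42930 regions in grey, member regions as points and dashed lines at 1.5-fold. The PMAIP1 region at 1.99 and 2.24 is the highest member point and the BID start region, at -1.12 and -2.13, the lowest on the y axis; on the boundary scale all points move up and right by about 0.48 and 0.49.

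Among the BH3-only genes, PMAIP1 carried the clearest single difference. The PMAIP1 region 17.8 kb before the start (chr18:59881730-59882801, between PMAIP1 and CCBE1, outside any gene body in the table) had a summit pileup of 30 reads after ATRA, 71 after POM, 115 after ATRA+POM and 45 in DMSO. Both libraries with POM were above both without it, even before scaling and although the POM library had the lowest depth. The scaled log2 ratio was 1.99 (1.43 to 2.56) for POM over DMSO and 2.24 (1.65 to 2.87) for ATRA+POM over ATRA, which is 3.98-fold and 4.73-fold. Its rank by −log10 q within its own list was 31371 after ATRA, 5295 after POM, 5118 after ATRA+POM and 29777 in DMSO. Of all 42930 shared regions, 368 (0.857%) had both POM ratios at least as high.

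The PMAIP1 start itself differed far less. The region over the start (chr18:59899495-59901073) had 308 reads after ATRA, 128 after POM, 212 after ATRA+POM and 305 in DMSO, or 352, 323, 299 and 305 after scaling. Its log2 ratio was 0.08 (-0.23 to 0.38) for POM over DMSO and -0.24 (-0.49 to 0.02) for ATRA+POM over ATRA, both intervals including 0. On the boundary scale these were 0.56 (0.25 to 0.86) and 0.25 (-0.01 to 0.51), and on the depth scale 0.32 (0.01 to 0.62) and 0.05 (-0.21 to 0.30), so the sign of the second turned. Set against the start region of the same library, a measure that needs no scale, the upstream region reached 9.74% after ATRA, 55.5% after POM, 54.2% after ATRA+POM and 14.8% in DMSO. Some rise in such percentages with POM was common over the genome. The main-scale median for POM over DMSO was 0.18 for all regions over 1 kb from a gene boundary and -0.47 for those within 1 kb. For ATRA+POM over ATRA these medians were 0.12 and -0.46.

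The only member region higher with ATRA in both comparisons was also near PMAIP1, 58.2 kb downstream of the start (chr18:59957714-59958500). It had 70 reads after ATRA, 16 after POM, 46 after ATRA+POM and 47 in DMSO. The log2 ratio was 0.77 (0.21 to 1.33) for ATRA over DMSO and 0.69 (-0.16 to 1.61) for ATRA+POM over POM, and the second interval includes 0. The other 6 PMAIP1 regions in all lists were weaker, with at most 65 reads in any library, and none passed 1.5-fold in both comparisons of either agent.

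**Figure D3:**
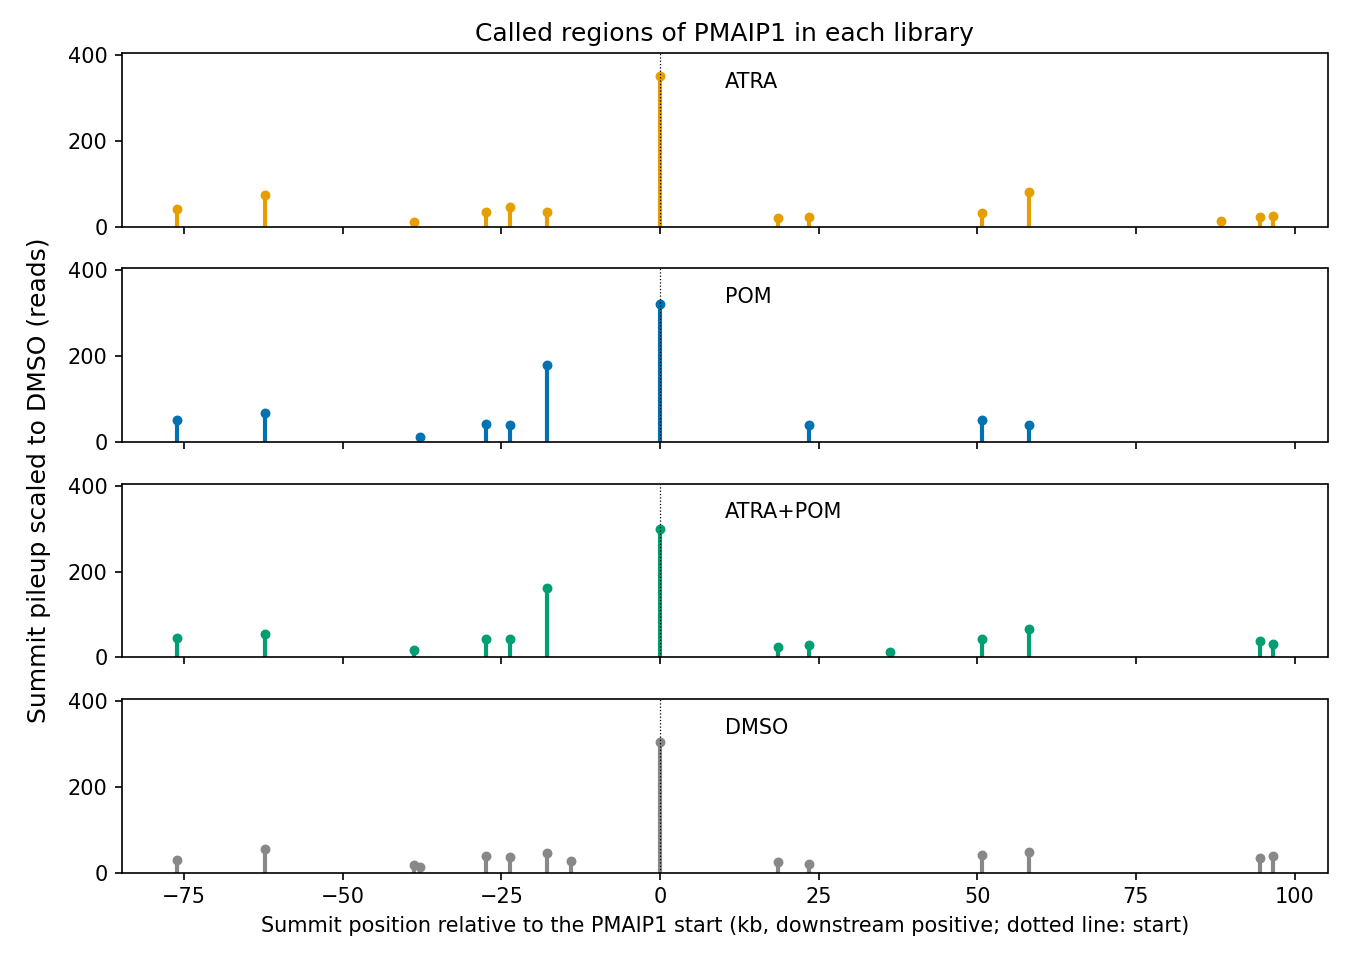
Scaled summit pileup (y axis, reads) of each called PMAIP1 region against its position relative to the start (x axis, kb), 1 panel per library. The region at -17.8 kb stands out in the POM and ATRA+POM panels, while the start region lies between 299 and 352 on this scale.

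BCL2L11, which encodes BIM, had a strong start region in all libraries. The region (chr2:111120296-111123372) had 258 reads after ATRA, 117 after POM, 242 after ATRA+POM and 361 in DMSO, or 295, 295, 342 and 361 after scaling. The log2 ratio was -0.29 (-0.60 to 0.01) for POM over DMSO and 0.21 (-0.05 to 0.47) for ATRA+POM over ATRA. Both intervals include 0 on this scale, but the values depend on it: on the boundary scale they were 0.19 (-0.13 to 0.49) and 0.70 (0.44 to 0.96), and on the depth scale -0.05 (-0.37 to 0.25) and 0.49 (0.23 to 0.75). It was the best-ranked BCL2L11 peak, at rank 5888 after ATRA, 3293 after POM, 1809 after ATRA+POM and 3971 in DMSO. Inside the gene, 37.1 kb from the start, a weaker region had 58, 16, 36 and 80 reads in the same order. The 4 BCL2L11 regions that were not in all lists had at most 15 reads.

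BBC3, which encodes PUMA, had no region within 1 kb of the 1 RefSeq start at hand. The nearest lay 1653 bp from that start, inside the gene (chr19:47230423-47231690), and had 110 reads after ATRA, 16 after POM and 160 in DMSO. It was absent after ATRA+POM, where the DMSO pileup would scale to 113 reads and the POM pileup to 28.6. The smallest pileup called anywhere in that list was 7. The local background here was high, at 44.3 reads in DMSO, 37.6 after ATRA and 5.21 after POM, so 7 reads may not suffice for a call. The POM peak itself ranked low, at 94.0% of its list. The BBC3 region 6.42 kb from the start (chr19:47225836-47227232, over MIR3190 and MIR3191) had 182, 53, 70 and 279 reads after ATRA, POM, ATRA+POM and in DMSO. Its log2 ratio was -1.06 (-1.51 to -0.63) for POM over DMSO and -1.07 (-1.49 to -0.67) for ATRA+POM over ATRA, and it was lower by 1.5-fold or more under all 4 scales. A region 11.5 kb upstream of the gene body (chr19:47243981-47244666), which overlaps the lncRNA LOC124904731, had 281 reads after ATRA, 47 after POM, 110 after ATRA+POM and 327 in DMSO. It was lower at -1.46 (-1.94 to -1.02) for POM over DMSO and -1.05 (-1.38 to -0.73) for ATRA+POM over ATRA. All 3 BBC3 regions that DMSO and ATRA held with more than 100 reads were thus lower, or absent, with POM.

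BID, which links death receptors to mitochondria once it is cleaved, had the lowest start region. The region over the start (chr22:17773486-17774495) had 70 reads after ATRA, 13 after POM, 13 after ATRA+POM and 71 in DMSO. The log2 ratio was -1.12 (-2.09 to -0.25) for POM over DMSO and -2.13 (-3.10 to -1.26) for ATRA+POM over ATRA, with wide intervals because 13 reads were counted in each library with POM. Only 0.0932% of shared regions had a lower ratio for ATRA+POM over ATRA, and 7.18% a lower ratio for POM over DMSO. A second BID region, 31.4 kb inside the gene, had 34 reads after ATRA and 37 in DMSO and was absent from both lists with POM, where 14.7 reads for POM and 26.2 for ATRA+POM would be its scaled DMSO level.

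Of the effector genes, BAX had 1 region at its start. It (chr19:48954435-48955382) had 199 reads after ATRA, 44 after POM, 102 after ATRA+POM and 253 in DMSO. The log2 ratio was -1.19 (-1.69 to -0.72) for POM over DMSO and -0.66 (-1.02 to -0.31) for ATRA+POM over ATRA. The second value was -0.17 on the boundary scale, so it did not pass 1.5-fold there. A second BAX peak, 707 bp past the gene end, was called in DMSO alone, with 107 reads over a local background of 59.9.

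BAK1, the other effector, had its highest-ranking region 1316 bp beyond the gene end (chr6:33570865-33571847), with 309 reads after ATRA, 62 after POM, 134 after ATRA+POM and 344 in DMSO. It was lower at -1.14 (-1.55 to -0.74) for POM over DMSO and -0.90 (-1.21 to -0.60) for ATRA+POM over ATRA. The region over the BAK1 start (chr6:33579705-33580690) had 124, 56, 64 and 168 reads after ATRA, POM, ATRA+POM and in DMSO, and its ratio for POM over DMSO was -0.25 (-0.71 to 0.19). That interval includes 0, whereas ATRA+POM over ATRA gave -0.65 (-1.11 to -0.20). The depth and boundary scales raise the second ratio by 0.28 and 0.49, after which its interval includes 0 as well. A region 9.75 kb upstream, inside the lncRNA LINC00336, had 70, 11, 26 and 67 reads in the same order. It was lower at -1.27 (-2.34 to -0.34) and -1.13 (-1.83 to -0.46) and past 1.5-fold under all 4 scales. Against its own start region the peak beyond the gene end reached 249% after ATRA, 111% after POM, 209% after ATRA+POM and 205% in DMSO.

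Among the anti-apoptotic genes, MCL1 had the largest pileup of the family in the ATRA and DMSO libraries. Its region 46 bp from a gene boundary (chr1:150578615-150580276) had 417 reads after ATRA, 100 after POM, 197 after ATRA+POM and 450 in DMSO. The log2 ratio was -0.84 (-1.16 to -0.52) for POM over DMSO and -0.78 (-1.03 to -0.53) for ATRA+POM over ATRA, while ATRA over DMSO gave 0.08 (-0.11 to 0.28). On the boundary scale the POM ratios were -0.36 and -0.29 and passed 1.5-fold in neither comparison. Its rank within its list was 665 after ATRA, 3282 after POM, 2991 after ATRA+POM and 604 in DMSO. A region on the other side of the gene (chr1:150567219-150569072) had 287, 80, 155 and 347 reads after ATRA, POM, ATRA+POM and in DMSO. Its best-ranked summit lies about midway to ADAMTSL4, 6.71 kb from that gene. That peak was the 1 of its 4 nearer to ADAMTSL4 than to MCL1.

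BCL2L1, which encodes BCL-XL, showed opposite differences inside one gene on the main scale. The region over its start (chr20:31722680-31724125) had 251 reads after ATRA, 72 after POM, 97 after ATRA+POM and 279 in DMSO. It was lower at -0.62 (-1.01 to -0.24) for POM over DMSO and -1.07 (-1.42 to -0.72) for ATRA+POM over ATRA. It passed 1.5-fold in both comparisons under only 2 of the 4 scales. A region inside the gene, 23.5 kb from the start and within the antisense lncRNA BCL2L1-AS1 (chr20:31698877-31699812), had 30, 48, 69 and 64 reads after ATRA, POM, ATRA+POM and in DMSO. It was higher at 0.92 (0.35 to 1.48) for POM over DMSO and 1.51 (0.87 to 2.17) for ATRA+POM over ATRA, and past 1.5-fold under all 4 scales. For ATRA over DMSO the same region was lower, at -0.90 (-1.58 to -0.25), where 1.58% of all shared regions were lower still. Relative to the start region of the same library it stood at 12.0% after ATRA, 66.7% after POM, 71.1% after ATRA+POM and 22.9% in DMSO. As at PMAIP1, some rise in such percentages with POM was common over the genome. A BCL2L1 region 2.53 kb past the gene end had 77 reads after ATRA, 11 after POM, 32 after ATRA+POM and 91 in DMSO, and was lower at -1.71 (-2.77 to -0.81) for POM over DMSO and -0.96 (-1.61 to -0.35) for ATRA+POM over ATRA.

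BCL2 had its largest pileup far from its start. The region 23.3 kb beyond the gene end (chr18:63098398-63101021) had 280 reads after ATRA, 153 after POM, 240 after ATRA+POM and 342 in DMSO. Its log2 ratio was 0.17 (-0.11 to 0.45) for POM over DMSO and 0.08 (-0.17 to 0.34) for ATRA+POM over ATRA, and both intervals include 0. On the depth scale these ratios were 0.41 (0.13 to 0.69) and 0.36 (0.11 to 0.62), and on the boundary scale 0.65 (0.37 to 0.93) and 0.57 (0.31 to 0.82), so on those 2 scales the region was higher beyond counting error. On any scale it lay near the middle of all shared regions. Of these, 58.5% had a lower ratio for POM over DMSO and 54.0% for ATRA+POM over ATRA. The BCL2 start region (chr18:63319474-63320778) had 135 reads after ATRA, 55 after POM, 87 after ATRA+POM and 196 in DMSO, with ratios of -0.50 (-0.96 to -0.06) and -0.33 (-0.74 to 0.07) for POM over DMSO and ATRA+POM over ATRA. The depth and boundary scales raise the first of these by 0.24 and 0.48, after which its interval includes 0. In pileup, the distal region was thus 207% of the start region after ATRA, 278% after POM, 276% after ATRA+POM and 174% in DMSO. On the main scale, all regions over 1 kb from a gene boundary had a median of 0.18 for POM over DMSO, and those within 1 kb -0.47. For ATRA+POM over ATRA these medians were 0.12 and -0.46, so a rise of this kind was common over the genome. The rank of the distal peak was 3348 after ATRA, 857 after POM, 1601 after ATRA+POM and 2494 in DMSO, and at 857 it was the best-ranked member peak in the POM list.

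Other BCL2 regions moved in both directions. A region 66.2 kb inside the gene (chr18:63252893-63254358) had 83 reads after ATRA, 28 after POM, 63 after ATRA+POM and 153 in DMSO. Each treatment was below DMSO there, at -0.69 (-1.09 to -0.29) for ATRA, -1.12 (-1.75 to -0.53) for POM and -0.78 (-1.23 to -0.35) for ATRA+POM, and these 3 values share the DMSO library. ATRA+POM over ATRA gave -0.09 (-0.59 to 0.40). The BCL2 region higher with POM in both comparisons was weak (chr18:63138355-63139114, 181 kb from the start), with 14, 14, 26 and 19 reads after ATRA, POM, ATRA+POM and in DMSO. Its ratios were 0.89 (-0.21 to 1.97) and 1.20 (0.21 to 2.25) for POM over DMSO and ATRA+POM over ATRA, and the first interval includes 0. The largest BCL2 ratio for ATRA+POM over DMSO was 1.11 (0.44 to 1.80), at chr18:63111632-63112584. The largest for ATRA+POM over ATRA was 1.24 (0.12 to 2.44), at chr18:63244418-63245629. For ATRA over DMSO that region had the smallest BCL2 ratio, -0.93 (-2.11 to 0.15).

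**Figure D4:**
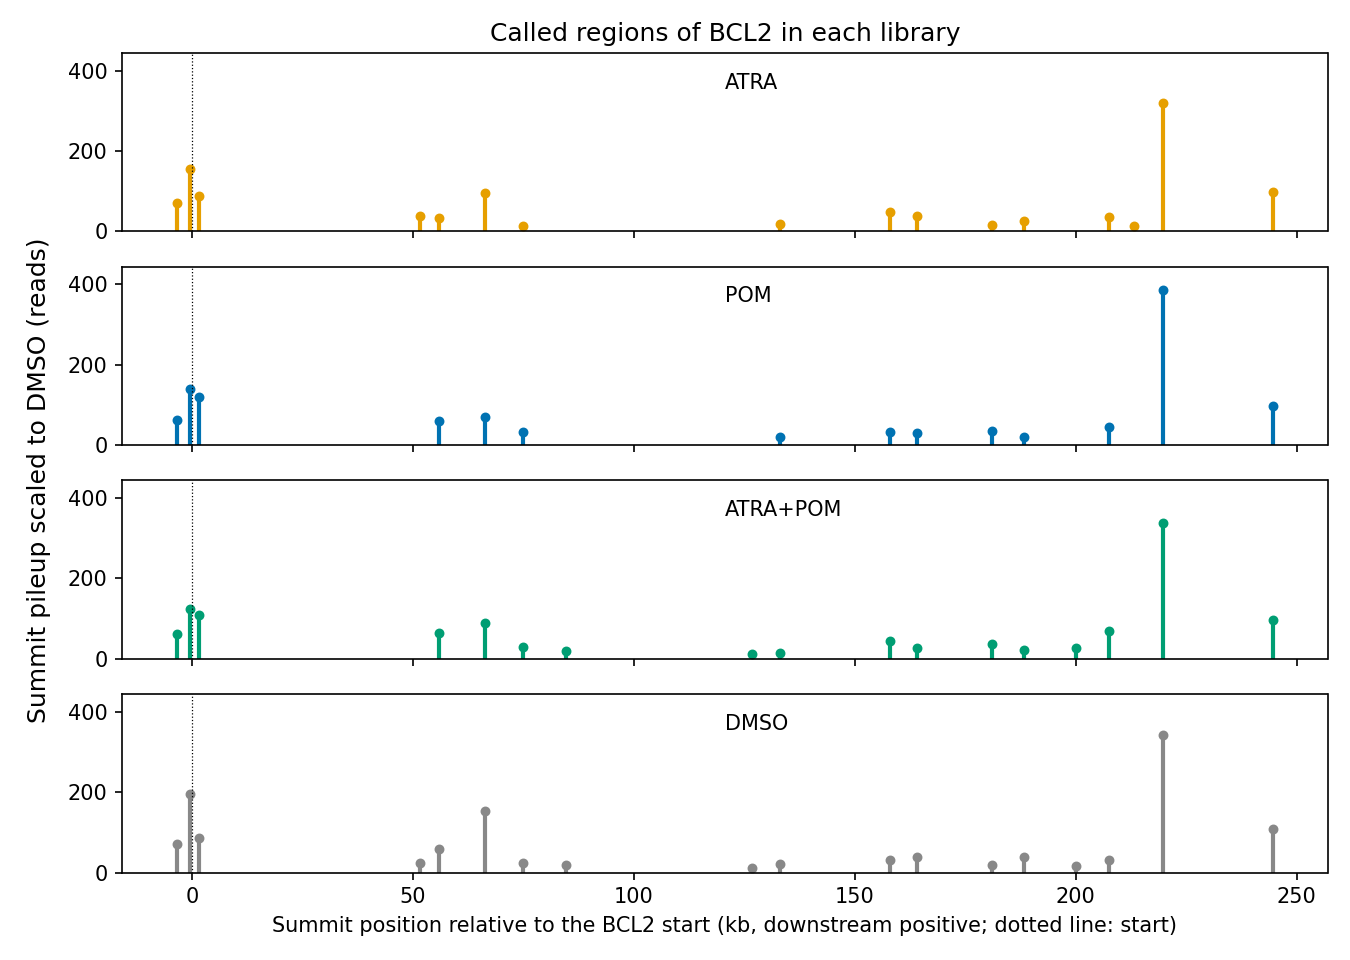
Scaled summit pileup (y axis, reads) of each called BCL2 region against its position relative to the start (x axis, kb), 1 panel per library. The tallest line in every panel stands beyond the gene end and not at the start.

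BCL2A1 is an anti-apoptotic gene driven by NF-kB in B cells. Its best peak ranked below those of all other members after ATRA, after POM and in DMSO. After ATRA+POM the best BID peak ranked lower still, at 60346. No region lay within 1 kb of the BCL2A1 start, and the nearest was 7759 bp upstream, with 38 reads after ATRA, none called after POM, 12 after ATRA+POM and 21 in DMSO. The best BCL2A1 peak ranked 23011 after ATRA, 45831 after POM, 41313 after ATRA+POM and 22188 in DMSO. Only 1 of its 5 regions was in all lists, 39.1 kb upstream, with 18, 7, 11 and 17 reads in that order.

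By position, 8 members had a region within 1 kb of a boundary in all 4 lists. For POM over DMSO their median log2 ratio was -0.56, against -0.47 for all such regions, and 4 of 8 were lower by 1.5-fold (all such regions 42.5%). For ATRA+POM over ATRA it was -0.66 against -0.46, and 5 of 8 were lower (all such regions 41.3%). For ATRA+POM over DMSO it was -0.75 against -0.48, and 6 of 8 were lower (all such regions 43.2%). These are small counts over 3 comparisons that share libraries, and lower boundary regions such as those of BAX, MCL1, BCL2L1 and BID were common over the genome. On the boundary scale, POM over DMSO at all such regions had a median near 0 by construction, and the shift between scales was 0.48 for POM over DMSO and 0.49 for ATRA+POM over ATRA. Away from boundaries, the median of the members was 0.03 for POM over DMSO, against 0.18 for all regions, and -0.11 for ATRA+POM over ATRA, against 0.12. There, 7 of 34 member regions were lower in both POM comparisons (all such regions 9.63%) and 3 were higher (all such regions 19.3%).

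Within a library, the division of pileup among the 8 boundary regions needs no scale. BCL2L11 took 14.6% of the summed pileup after ATRA (95% Wilson interval 13.1 to 16.4), 20% after POM (17.0 to 23.4), 23.9% after ATRA+POM (21.3 to 26.6) and 17.3% in DMSO (15.8 to 19.0). PMAIP1 took 17.5% after ATRA (15.8 to 19.3), 21.9% after POM (18.7 to 25.4), 20.9% after ATRA+POM (18.5 to 23.5) and 14.6% in DMSO (13.2 to 16.2). Both genes thus had larger shares with POM than in the matched library without it, although the intervals of BCL2L11 for POM and DMSO and those of PMAIP1 for ATRA+POM and ATRA overlap. The 8 shares of a library sum to a fixed total, so lower shares at some regions go with higher shares at others. A larger share is thus not by itself a larger pileup. BID took 3.97% after ATRA, 2.22% after POM, 1.28% after ATRA+POM and 3.41% in DMSO. BAX took 11.3% after ATRA, 7.52% after POM, 10.1% after ATRA+POM and 12.1% in DMSO, and MCL1 took 23.7%, 17.1%, 19.4% and 21.6%.

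**Figure D5:**
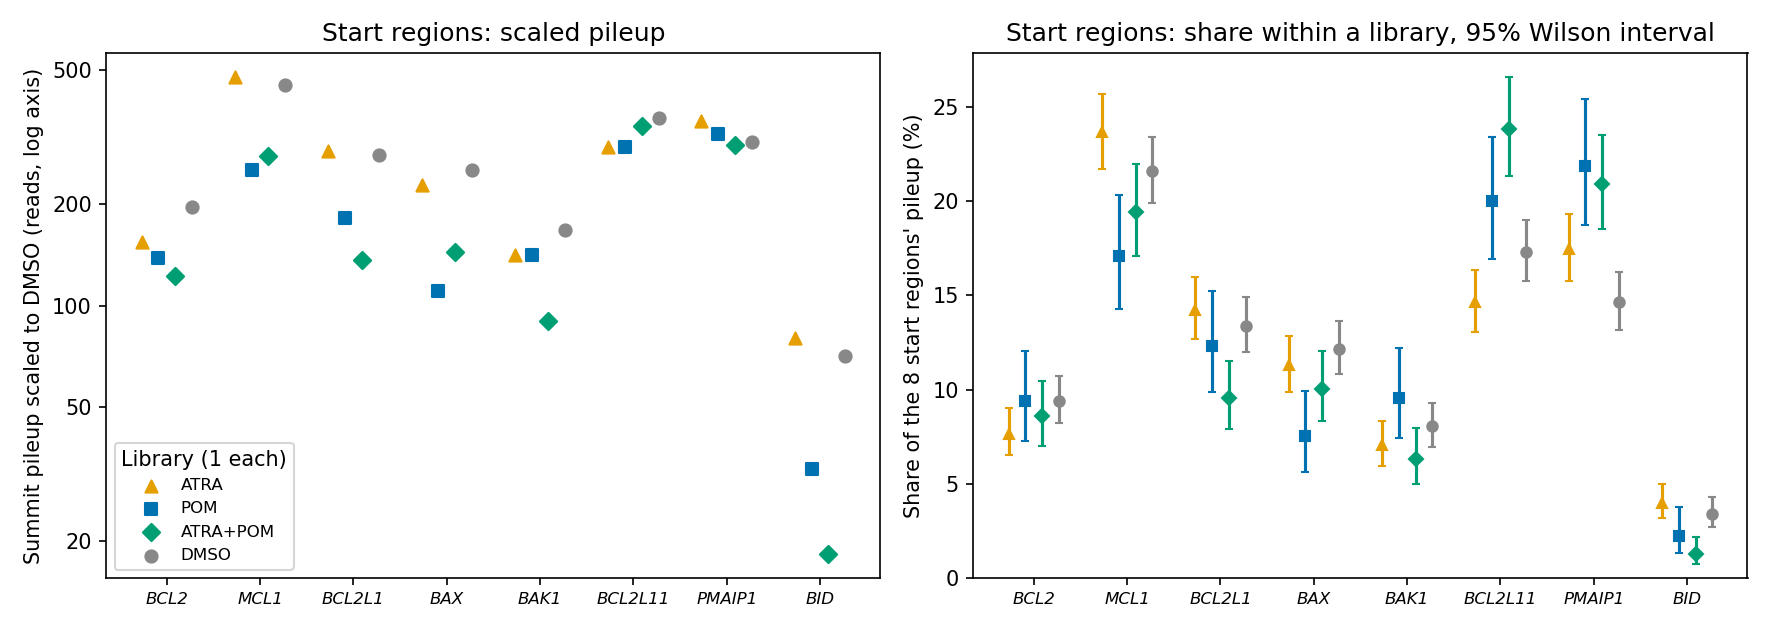
Left, scaled summit pileup (log axis, reads) of the region within 1 kb of a boundary for 8 members; right, its share of their summed pileup in the same library (%, with 95% Wilson intervals). BCL2L11 and PMAIP1 have 295 to 361 and 299 to 352 reads on this scale and larger shares with POM than in the matched library without it, while BID has 1.28% to 2.22% with POM and 3.41% to 3.97% without.

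The rest of the apoptosis machinery was described in the same way. Of 11 other BCL2 family genes, 15 regions were in all lists, and 0 were higher and 2 lower in both POM comparisons. The lower ones were 124 bp from a boundary of BAD, a BH3-only gene, with 445, 106, 236 and 455 reads after ATRA, POM, ATRA+POM and in DMSO, and inside BCL2L13, with 169, 34, 83 and 190. BCL2L10 and BCL2L15 had no peak in any list. Of 43 shared regions of 19 apoptosome, caspase and inhibitor genes, 3 were higher, near BIRC3, an NF-kB target that inhibits apoptosis, with 2 regions, and CASP6, an executioner caspase. In that group 4 were lower, in or near FADD, BIRC5, CASP10 and CASP8. Of 38 shared regions of 12 upstream regulators, 3 were higher, inside FOXO1, 3540 bp from NFKB1 and 70918 bp from FOXO3, and 13 were lower. The lower ones were in or near TP73, RELA, FOXO1, STAT3, E2F1, ATF4, IRF4 and FOXO3. IRF4 is also among the plasma cell markers, so its lower regions count in both groups. These shares, 6.98% higher and 9.30% lower for the caspase group and 7.89% and 34.2% for the regulators, stand against 15.5% and 14.4% of all regions.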

How the data were processed

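ATAC-seq libraries of OPM-2 cells, 1 per condition, were grouped by the treatment label. The authors deposited, for each library, peaks and summits called per library, on hg38 per the submitters' processing notes; no aligner, caller or Tn5 shift is given in the sources used here. The deposited score equals 10 times the −log10 q-value, cut to a whole number. The deposited fold is the ratio of summit pileup to background, judged from the values, and the −log10 p-value and q-value the authors deposited are those of each peak's summit. Pileup and background were recovered by solving fold and p-value under a Poisson tail, an assumption about the caller, which gave the p-value within 0.01 for 99.6 to 99.98% of peaks. Read totals were not used here. Depth is background over the smallest peak width, relative to DMSO.

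Genes came from RefSeq tables of GRCh38.p14 (19970 protein-coding genes), and 5 peaks off chromosomes 1 to 22 and X were left out. Ranks are by −log10 q within a list. The scales were 0.874 (ATRA), 0.397 (POM) and 0.708 (ATRA+POM). Regions named are, per member, the best-ranked, the nearest to a start or boundary, those past 1.5-fold alike in both comparisons that share no library, and some of the extremes. The members and lists were chosen with earlier results of these data known. Alternatives were other scales, distance limits, thresholds, folds and overlap rules. Python 3.11.15, numpy 2.4.6, pandas 2.3.3 and scipy 1.17.1 were used, and the code was tested on simulated data. PCR reads without molecular identifiers are not independent molecules.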

Additional observations from a re-analysis of the deposited data

How the results depend on the processing

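Each value comes from 1 library per condition, and the alternatives varied the processing alone. No paired analysis was possible because each condition has 1 library. Depth limits the POM list most, where pileups from 4 were called.

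Of the counts, 73 values stayed within 1.5 times the main count and 43 did not. Within 10 kb of a gene, member peaks numbered 37 after ATRA, 31 after POM, 38 after ATRA+POM and 41 in DMSO. With absence defined as no summit within 250 bp, there were 5 new peaks for ATRA against DMSO and 4 for POM against DMSO, and 5 absent for ATRA+POM against POM. With lists of equal length, new peaks numbered 1 for ATRA against DMSO, and for ATRA+POM 2 against DMSO, 5 against ATRA and 10 against POM. On the depth scale, ATRA against DMSO had 2 higher regions, POM against DMSO 11 higher, ATRA+POM against DMSO 10 higher and 12 lower, and ATRA+POM against ATRA 15 higher and 9 lower, with 8 higher and 7 lower in both POM comparisons. On the boundary scale POM against DMSO had 16 higher and 9 lower, ATRA+POM against DMSO 19 and 4, ATRA+POM against ATRA 18 and 4, and both POM comparisons 11 and 3. At 2-fold, higher and lower counts were 1 and 0 for ATRA against DMSO, 1 and 9 for POM against DMSO, 2 and 6 for ATRA+POM against DMSO, 4 and 6 for ATRA+POM against ATRA, 0 and 0 for ATRA+POM against POM, 1 and 4 in both POM comparisons, and 0 higher in both ATRA comparisons. With a mean pileup of at least 20, ATRA against DMSO had 2 higher and 5 lower, and POM against DMSO 3 higher. The depth scale moved all log2 ratios by -0.11 for ATRA over DMSO, 0.24 for POM over DMSO, 0.18 for ATRA+POM over DMSO and 0.28 for ATRA+POM over ATRA. The cause of the changed counts was not tested.

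Of 73 regional log2 ratios past 1.5-fold, 59 stayed past it on the depth scale, 43 on the boundary scale and 70 on the scale from regions over 1 kb from a boundary, and 13, 26 and 6 others passed it. None of those past it changed sign.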
